A study of Homo sapiens with 6 samples.

Results

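The EGFR family receptors and their ligands were followed as 10 genes, the 4 receptors EGFR, ERBB2, ERBB3 and ERBB4 and the 6 ligands EGF, AREG, EREG, HBEGF, TGFA and BTC. Every probe whose gene name in the array files was 1 of these symbols was taken, which gave 18 of the 58201 non-control probes, 10 of receptors and 8 of ligands. RNA came from the breast cancer cell line BT474, which expresses the estrogen receptor and has amplified HER2, and was hybridized to 6 one-color arrays, 2 per group. Control BT474 cells carried empty pcDNA3.1, BT474-Var1 cells carried pcDNA3.1 with variant1, the long form, of the long noncoding RNA NR2F1-AS1, and BT474-Var4 cells carried pcDNA3.1 with variant4, the short form. By the methods, Var1 was placed in pcDNA3.1/Hygro(+) and Var4 in pcDNA3.1-P2A-eGFP, and which empty plasmid the Control cells of these arrays carried was not stated. All 3 populations were stably transfected and selected with an antibiotic, and the variant cells had regrown from the few that survived, so each may stand for a small number of clones. Nothing states that the replicate arrays A and B of a group came from separate cultures, so the p-values measure only the spread between these arrays.

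The receptors of this family are tyrosine kinases in the cell membrane that work as pairs, and a bound ligand favors the pairing. ERBB2 (HER2) has no known ligand and is amplified in HER2-positive breast cancer, whereas ERBB3 has little kinase activity of its own and signals through its partners. The ligands are made as membrane-anchored precursors, and proteases shed them from the cell surface. Amphiregulin (AREG) is known as an estrogen-responsive ligand of EGFR in breast epithelium.

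The probes that the results turn on are shown because those of 1 gene read different transcripts or different parts of the same transcript. Each is 60 bases long and its first 30 bases are given 5′ to 3′ in lower case, with no part singled out; positions are those of the array files on hg19. The 3 EGFR probes lie on the plus strand of chromosome 7. The first was designed on the transcript of the full-length receptor (chr7:55274841-55274900) and the second on a short EGFR transcript that encodes a truncated receptor (chr7:55224558-55224617). The third is listed for 2 other short transcripts (chr7:55231446-55231505), and whether it also reads the full-length transcript was not tested.
EGFR A_23_P215790: tatcaaggaagaaatggttcagaaaatatt
EGFR A_33_P3351944: ggaaatcagtgttttagagagagaactttt
EGFR A_33_P3351955: agaactctgagtgcatacagtgccacccag

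The 3 ERBB3 probes lie on the plus strand of chromosome 12. The first (chr12:56496160-56496219) and the third (chr12:56482380-56482439) were designed on the full-length transcript, and the second (chr12:56479217-56479276) on a short transcript that encodes a truncated receptor.
ERBB3 A_23_P349416: gctcttgactacttggaactaggctcttat
ERBB3 A_33_P3211569: ttttctaatttcaaagtacagtgtaccgga
ERBB3 A_33_P3280471: atggaagtagataaaaatgggctcaagatg

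Both AREG probes (chr4:75320518-75320577 and chr4:75318293-75318352) were designed on 1 AREG transcript, and the EREG probe (chr4:75254009-75254068) lies on the same chromosome. The GC content of the 60 bases was 41.7% and 40% for the AREG probes and 36.7% for the EREG probe.
AREG A_23_P259071: tgagtcggtcctctttccagtggatcataa
AREG A_33_P3419190: gagaagctgaggaacgaaagaaacttcgac
EREG A_23_P41344: tgttcatatgggagaagggggagtaatgac

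The 250 bases before the start of EGFR, AREG and EREG are shown because these 3 genes had the largest differences. They were taken from RefSeq promoter sequences of GRCh38.p14, in which 9 of the 10 genes were matched, and run in the direction of the gene, all on the plus strand. EGFR is at chr7:55018767-55019016, AREG at chr4:74444886-74445135 and EREG at chr4:74364895-74365144. Capitals mark matches, on either strand, to a TATA box (TATAAA), a GC box (GGGCGG), a cAMP response element (TGACGTCA) or an AP-1 site (TGANTCA), and no match overlapped another.
EGFR: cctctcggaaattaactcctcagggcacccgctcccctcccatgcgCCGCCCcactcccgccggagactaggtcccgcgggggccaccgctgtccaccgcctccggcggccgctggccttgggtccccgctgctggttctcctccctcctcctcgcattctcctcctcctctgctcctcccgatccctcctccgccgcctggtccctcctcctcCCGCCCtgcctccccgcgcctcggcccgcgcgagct
AREG: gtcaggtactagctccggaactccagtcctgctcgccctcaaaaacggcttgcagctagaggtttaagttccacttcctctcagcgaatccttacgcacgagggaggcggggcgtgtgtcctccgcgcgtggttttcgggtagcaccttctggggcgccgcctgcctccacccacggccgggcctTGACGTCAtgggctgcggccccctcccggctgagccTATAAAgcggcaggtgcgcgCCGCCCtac
EREG: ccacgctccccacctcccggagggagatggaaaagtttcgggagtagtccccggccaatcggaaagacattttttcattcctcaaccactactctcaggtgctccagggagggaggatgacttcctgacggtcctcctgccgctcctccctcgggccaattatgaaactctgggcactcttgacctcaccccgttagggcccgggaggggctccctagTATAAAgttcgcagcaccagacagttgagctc

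The EGFR window had 2 GC boxes and a GC content of 73.6%, the AREG window had 1 TATA box, 1 GC box and 1 cAMP response element at a GC content of 65.2%, and the EREG window had 1 TATA box at a GC content of 58%. The TATA boxes began 29 bases before the AREG start and 32 bases before the EREG start, and the cAMP response element began 65 bases before the AREG start. Over all 35116 promoter entries, windows of the same length held a TATA box in 10.7%, a GC box in 42.6%, a cAMP response element in 1.65% and an AP-1 site in 6.57% of cases. The matches are letters in a window and no binding was measured.

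Values are log2 processed intensities relative to the 75th percentile of the non-control probes of the same array, so 0 is that percentile, and the level of 1 probe cannot be set against that of another. A probe was tested where both arrays of any 1 of the 3 groups were flagged as clearly above background, and it passed at an adjusted p under 0.05. Of the 18 probes, 14 were tested, among 31857 tested on the whole array, and 12 were well above background on all 6 arrays. The 4 untested probes were A_33_P3351955 of EGFR, A_33_P3211558 of ERBB4, A_24_P140608 of HBEGF and A_23_P377291 of TGFA. The first 3 were not well above background on any array, which puts only an upper bound on these transcripts. In bulk RNA, fewer cells that express a gene and less RNA per cell cannot be told apart.

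All 6 arrays lay on 1 slide, and between 47.6% and 57.5% of probes per array were well above background, the lowest share on BT474-Var4 B. The slide column of the BT474-Var1 arrays was not that of the other 4, so slide column and the Var1 transfection cannot be told apart. The Control arrays lay in rows 1 and 2 and the arrays of both variants in rows 3 and 4. Slide row and the difference of either variant from Control thus cannot be told apart. NR2F1-AS1 had 4 probes, and they went with the labels. For example, a probe at chr5:92745544-92745603 read -6.37 and -6.62 in Control, -0.42 and -0.51 in BT474-Var1 cells and -6.33 and -5.73 in BT474-Var4 cells, and a probe at chr5:92877924-92877983 read 1.67 and 1.50 in BT474-Var4 cells and between -6.42 and -4.25 on the other 4 arrays. All 9 luminal epithelial markers were well above background on the 6 arrays, against 0 of 3 basal, 2 of 3 fibroblast, 2 of 3 leukocyte and 2 of 3 endothelial markers. The summed level of the luminal markers was 10.79 to 10.81 in Control, 11.13 to 11.15 in BT474-Var1 cells and 10.73 to 10.75 in BT474-Var4 cells, and was carried by KRT19. The other luminal markers were split in BT474-Var1 cells. EPCAM read 5.85 and 5.84 against 6.54 and 6.48 in Control, CDH1 5.60 and 5.62 against 6.06 and 6.10, and FOXA1 5.28 and 5.31 against 5.78 and 5.80. KRT8 was higher like KRT19, at 6.84 and 6.85 against 6.52 and 6.53 in Control. GATA3 read 4.52 and 4.43 against 4.32 and 4.29, and KRT18 8.96 and 8.96 against 8.90 and 8.90. The progesterone receptor gene PGR read 4.77 on both Control arrays, 4.46 and 4.52 in BT474-Var1 and 3.58 and 3.53 in the BT474-Var4 cells. The estrogen receptor gene ESR1 read 2.11 and 2.18 in Control, 1.95 and 2.09 in BT474-Var1 and 1.64 and 1.71 in the BT474-Var4 cells. Of the other lists, the fibroblast sum was 1.63 to 1.64, 1.86 to 1.89 and 2.38 to 2.40, with COL1A2 not well above background on any array, and the endothelial sum was 1.37 to 1.48, 0.82 to 0.92 and 1.28 to 1.36, with PECAM1 above it on 1 array. The basal sum was -3.56 to -3.20, -2.88 to -2.45 and -3.11 to -2.86, with KRT5 not above background on any array, and the leukocyte sum was 0.24 to 0.29, 0.32 to 0.33 and 0.13 to 0.24. The part of these differences in the results below was not tested.

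In BT474-Var1 cells EGFR RNA was 3.05-fold higher than in Control cells by its full-length probe, and in BT474-Var4 cells both probes of the ligand AREG rose. Against Control, 8 of the 14 tested probes passed in BT474-Var1 cells, 5 higher and 3 lower, beside 34.4% of all tested probes that passed, 14.1% higher and 20.3% lower. In BT474-Var4 cells 5 passed, 3 higher and 2 lower, beside 24.2% of all tested probes, 9.87% higher and 14.3% lower. A change of 2-fold or more that also passed was found for 3 member probes in BT474-Var1 cells, beside 3.94% of all tested probes, and for 1 in BT474-Var4 cells, beside 3.17%. Between BT474-Var4 and BT474-Var1 cells 4 passed, 2 higher and 2 lower in BT474-Var4 cells, 3 of them by 2-fold or more, beside 41.2% of all tested probes, of which 20.4% were higher, 20.7% lower and 6.87% past 2-fold. Of the 14, A_33_P3351944 of EGFR and A_23_P41344 of EREG were tested only through the groups where they were high. With only probes above background on all 6 arrays tested, 7 of 12 passed in BT474-Var1 cells, 5 in BT474-Var4 cells and 5 between the variants. Under that filter 11581, 8703 and 12929 of all 26709 tested probes passed in these comparisons. The median log2 fold change of the 14 probes was -0.07, 0.18 and -0.01 in these comparisons, against -0.04, -0.08 and -0.03 over all tested probes. The comparisons share arrays, both against Control using the same 2 Control arrays, and are not independent of each other.

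**Figure D1:**
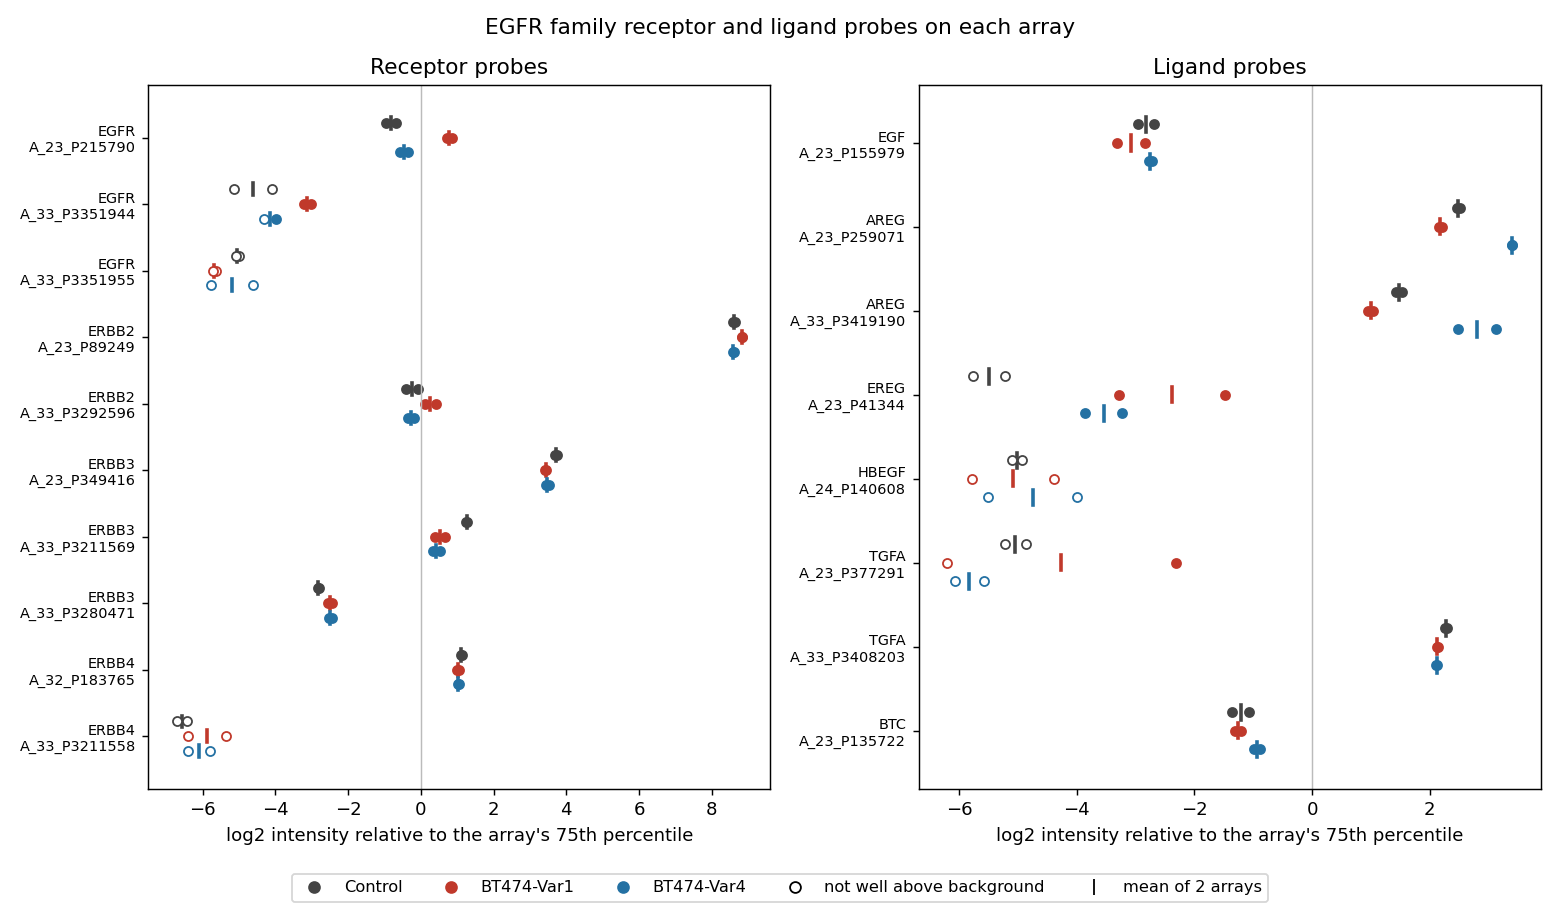
Log2 intensity of the 18 receptor and ligand probes on each of the 6 arrays (x axis, relative to the 75th percentile of the array), with 1 point per array, open where the probe was not well above background, and a tick at the mean of the 2 arrays of a group. The BT474-Var1 points of EGFR A_23_P215790 lie at 0.71 and 0.85, to the right of all other arrays, and the BT474-Var4 points of both AREG probes lie to the right of the other 4 arrays.

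EGFR, the receptor of EGF, AREG and TGFA, was higher in BT474-Var1 cells. Its full-length probe A_23_P215790 read -0.97 and -0.69 in Control, 0.71 and 0.85 in BT474-Var1 cells and -0.37 and -0.58 in BT474-Var4 cells. The BT474-Var1 arrays were above all others, and the BT474-Var4 arrays lay above both Control arrays by less. EGFR rose by 1.61 ± 0.13 on the log2 scale (SE, n = 2 arrays per group) in BT474-Var1 cells, which is 3.05-fold with a 95% interval of 2.39 to 3.90 (limma, adjusted p = 0.00445). For BT474-Var4 against Control cells it was 0.36 ± 0.13 and did not pass (limma, adjusted p = 0.121). The 2 variants differed directly, by -1.25 ± 0.13 in BT474-Var4 relative to BT474-Var1 cells (limma, adjusted p = 0.00435). With normexp background correction and an offset of 50, which pulls low signals together, the rise in BT474-Var1 cells was 1.00 on the log2 scale and still passed (limma, adjusted p = 8.14e-06).

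The probe of the short EGFR transcript, A_33_P3351944, was not well above background on either Control array, where it read -4.08 and -5.13. It read -3.22 and -3.03 in BT474-Var1 cells and -3.98 and -4.33 in BT474-Var4 cells, where only array A was well above background. The 2 BT474-Var1 arrays were the highest. Where a group is not measured above background, its values are raised to the lowest signal of a well-measured probe on the same array. The fold change of the group means is then taken as a lower bound, which leaves out the spread between arrays. It is approximate here, since Control A read -4.08, above that lowest signal of -4.26, and was still not well above background. The limma interval and adjusted p are those of the values as read. The probe was tested only because it was above background in BT474-Var1 cells, the group where it was high, so the test is no independent support. The approximate bound for BT474-Var1 cells was 2.25-fold higher (limma, adjusted p = 0.0416). The difference did not pass with no filter on dim probes (limma, adjusted p = 0.119), under quantile normalization (0.0629) or by the methods' analysis of variance (0.117). It also did not pass with only the 2 groups compared (limma, adjusted p = 0.0724) or with a replicate block (0.0525). It was also lost with Control B, BT474-Var1 A or BT474-Var1 B left out. The fits without a BT474-Var4 array lost it as well, but they repeat the fit of only the 2 groups compared. The third EGFR probe was not well above background on any array, with readings of -5.76 to -4.61. It read -5.64 and -5.72 in BT474-Var1 cells, so the rise of full-length EGFR rests on 1 probe. The normexp correction gave a log2 change of 0.22 for the short transcript in BT474-Var1 cells, and in BT474-Var4 cells the fitted change was -0.07 without Control B.

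ERBB2, the amplified receptor that defines HER2-positive cells, differed little. Its probe A_23_P89249, at chr17:37884829-37884888 and printed as 10 spots, read 8.63 and 8.59 in Control, 8.83 and 8.83 in BT474-Var1 cells and 8.60 and 8.58 in BT474-Var4 cells. The BT474-Var1 arrays were highest, by a margin that was small but larger than the spread between replicate arrays. The log2 difference from Control was 0.22 ± 0.05 in BT474-Var1 cells, 1.17-fold (limma, adjusted p = 0.0295), and -0.02 ± 0.05 in BT474-Var4 cells, with a 95% interval of -0.15 to 0.11 (limma, adjusted p = 0.843). BT474-Var4 relative to BT474-Var1 cells gave -0.24 ± 0.05 (limma, adjusted p = 0.0214). The call against Control was lost with any 1 of the 6 arrays left out, where the fits without a BT474-Var4 array repeat that of only the 2 groups compared. It was also lost with no filter on dim probes (limma, adjusted p = 0.184), a replicate block (0.0604) or only the 2 groups compared (0.0558). The call between the variants was lost without either array of BT474-Var1 or BT474-Var4 cells. Quantile normalization and no filter on dim probes lost it as well. A second ERBB2 probe, A_33_P3292596 at chr17:37851136-37851195, read -0.40 and -0.08 in Control, 0.41 and 0.12 in BT474-Var1 cells and -0.34 and -0.19 in BT474-Var4 cells. It gave 0.50 ± 0.16 for BT474-Var1 cells against Control and did not pass (limma, adjusted p = 0.0714). BT474-Var4 relative to BT474-Var1 cells gave -0.53 ± 0.16 by this probe, which did not pass either (limma, adjusted p = 0.0554). Both differences passed with the normexp correction, with the filter on all 6 arrays and with trend and robust estimation.

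ERBB3, the partner through which ERBB2 reaches PI3K, had 3 probes that passed in both variant populations, and they did not go the same way. The full-length probe A_23_P349416 read 3.68 and 3.74 in Control, 3.41 and 3.44 in BT474-Var1 cells and 3.45 and 3.51 in BT474-Var4 cells. Both Control arrays lay above the other 4. The log2 difference was -0.28 ± 0.06 in BT474-Var1 cells (limma, adjusted p = 0.0229) and -0.23 ± 0.06 in BT474-Var4 cells (limma, adjusted p = 0.0490).

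The probe of the short ERBB3 transcript, A_33_P3211569, fell further. It read 1.25 and 1.28 in Control, 0.66 and 0.38 in BT474-Var1 cells and 0.52 and 0.33 in BT474-Var4 cells, and both Control arrays were again the highest. The log2 difference was -0.74 ± 0.12 in BT474-Var1 cells, 1.67-fold lower than Control (limma, adjusted p = 0.0146), and -0.84 ± 0.12 in BT474-Var4 cells, 1.79-fold lower (limma, adjusted p = 0.0157). The third ERBB3 probe, A_33_P3280471, also designed on the full-length transcript, went the other way in both populations. It read -2.80 and -2.84 in Control, -2.43 and -2.54 in BT474-Var1 cells and -2.45 and -2.52 in BT474-Var4 cells, a rise of 0.33 ± 0.07 in either population (limma, adjusted p = 0.0219 and 0.0295). The 3 probes of ERBB3 thus gave no single direction for the gene. None of the 3 differed between the variants, with log2 differences of 0.05, -0.10 and 0.00 and 95% intervals within -0.43 to 0.23 (limma, adjusted p = 0.488, 0.548 and 0.994).

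The normexp correction gave 0.11 and 0.07 for A_33_P3280471 in BT474-Var1 and BT474-Var4 cells, neither of which passed (limma, adjusted p = 0.0595 and 0.261), and quantile normalization gave 0.16 in BT474-Var1 cells (limma, adjusted p = 0.147). For A_23_P349416 quantile normalization gave -0.15 in BT474-Var1 cells and -0.19 in BT474-Var4 cells, neither of which passed (limma, adjusted p = 0.121 and 0.0846). All 6 ERBB3 calls against Control were lost without Control A and also without Control B. Over the fits with 1 array left out, the adjusted p in BT474-Var1 cells ran from 0.0413 to 0.108 for A_23_P349416, from 0.0281 to 0.0732 for A_33_P3211569 and from 0.0426 to 0.102 for A_33_P3280471. In BT474-Var4 cells it ran from 0.0859 to 0.191, from 0.0241 to 0.0846 and from 0.0446 to 0.131. In BT474-Var1 cells the first probe was also lost without BT474-Var1 A or B and the third without BT474-Var1 A. In BT474-Var4 cells the first was lost with any 1 of the 6 arrays left out, the second without BT474-Var4 B and the third without BT474-Var4 A or B. For the first probe, the fits without a BT474-Var1 array repeat that of only the 2 groups compared.

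ERBB4, a neuregulin receptor, showed no difference that passed. Its probe A_32_P183765 at chr2:212240515-212240574 read between 0.99 and 1.13 on the 6 arrays, with group means of 1.12 ± 0.02 (SD, n = 2) in Control, 1.02 ± 0.04 in BT474-Var1 cells and 1.03 ± 0.02 in BT474-Var4 cells. The 95% intervals of the log2 difference from Control were -0.24 to 0.04 in BT474-Var1 cells and -0.22 to 0.05 in BT474-Var4 cells (limma, adjusted p = 0.204 and 0.281). The other ERBB4 probe, although listed for the same transcripts, was not well above background on any array.

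AREG, a ligand of EGFR, was higher in BT474-Var4 cells by both of its probes. A_23_P259071 read 2.46 and 2.52 in Control, 2.21 and 2.16 in BT474-Var1 cells and 3.40 and 3.39 in BT474-Var4 cells. The 3 groups did not overlap, with BT474-Var4 highest and BT474-Var1 lowest. AREG rose by 0.91 ± 0.05 on the log2 scale in BT474-Var4 cells, 1.88-fold with a 95% interval of 1.70 to 2.08 (limma, adjusted p = 0.00343). In BT474-Var1 cells it fell by 0.30 ± 0.05, 1.24-fold lower (limma, adjusted p = 0.0170). BT474-Var4 relative to BT474-Var1 cells gave 1.22 ± 0.05, 2.32-fold (limma, adjusted p = 0.00120).

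The second AREG probe, A_33_P3419190, ordered the groups in the same way. It read 1.43 and 1.54 in Control, 0.96 and 1.03 in BT474-Var1 cells and 2.49 and 3.13 in BT474-Var4 cells. The BT474-Var4 arrays had an SD of 0.45, the widest spread of any group at the AREG probes. The rise in BT474-Var4 cells was 1.32 ± 0.22, 2.50-fold with a 95% interval of 1.66 to 3.76 (limma, adjusted p = 0.0213), and BT474-Var4 relative to BT474-Var1 cells gave 1.81 ± 0.22, 3.51-fold (limma, adjusted p = 0.00601). The difference of -0.49 ± 0.22 in BT474-Var1 cells did not pass (limma, adjusted p = 0.159), although it did with only the 2 groups compared. The fits without a BT474-Var4 array repeat that fit. The BT474-Var4 call against Control was lost with no filter on dim probes, by the methods' analysis of variance and without Control A or Control B. The fall of A_23_P259071 in BT474-Var1 cells was lost with no filter on dim probes and without Control A, Control B, BT474-Var1 A or BT474-Var1 B.

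EREG encodes epiregulin, a ligand of EGFR and ERBB4, and lies near AREG on chromosome 4. Its probe A_23_P41344 was not well above background on either Control array, where it read -5.77 and -5.23, and was well above it on the other 4, at -3.28 and -1.47 in BT474-Var1 cells and -3.86 and -3.23 in BT474-Var4 cells. All 4 variant arrays lay above both Control arrays, and the BT474-Var1 arrays differed from each other by an SD of 1.27. The probe was tested only through the variant groups, where it was high, so its test is no independent support. Relative to Control, the bound from the group means of EREG was 4.02-fold higher in BT474-Var1 cells. The fit to the values as read gave 8.71-fold, with a 95% interval of 2.58 to 29.4 (limma, adjusted p = 0.0266). In BT474-Var4 cells the bound was 1.78-fold higher, and the fitted difference did not pass (limma, adjusted p = 0.0996). The variants did not differ by the test, with a log2 difference of -1.17 and a 95% interval of -2.92 to 0.58 (limma, adjusted p = 0.218).

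The EREG call in BT474-Var1 cells depended on the filter and on single arrays. It was lost with no filter on dim probes (limma, adjusted p = 0.0858), by the methods' analysis of variance (0.0867) and with only the 2 groups compared (0.0519). It was also lost without Control A or Control B. The fits without a BT474-Var4 array lost it as well, but they repeat the fit of only the 2 groups compared. The fitted log2 change, 3.12 with all arrays, was 4.02 without BT474-Var1 A and 2.22 without BT474-Var1 B, and it passed in both (adjusted p = 0.0291 and 0.0427). With the normexp correction it was 0.51. In BT474-Var4 cells EREG passed with trend and robust estimation and with only the 2 groups compared. The fits without a BT474-Var1 array repeat the latter.

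No difference of the other ligands passed in the reported fit. EGF, at chr4:110932689-110932748, read -2.69 and -2.96 in Control, -2.84 and -3.32 in BT474-Var1 cells and -2.73 and -2.78 in BT474-Var4 cells, and the BT474-Var4 arrays lay between the Control arrays. TGFA, by its probe at chr2:70683472-70683531, read 2.29 and 2.27 in Control, 2.13 and 2.14 in BT474-Var1 cells and 2.11 and 2.13 in BT474-Var4 cells. Both Control arrays of TGFA were above the rest, by log2 differences of -0.15 ± 0.05 and -0.16 ± 0.05 in the variants that did not pass (limma, adjusted p = 0.0792 and 0.0750). Both TGFA differences did pass by the methods' analysis of variance and with trend and robust estimation. BTC, betacellulin, at chr4:75675838-75675897, read -1.35 and -1.08 in Control, -1.21 and -1.31 in BT474-Var1 cells and -0.98 and -0.88 in BT474-Var4 cells, and its difference of 0.29 ± 0.11 in BT474-Var4 cells did not pass (limma, adjusted p = 0.136). Between the variants BTC differed by 0.33 ± 0.11 (limma, adjusted p = 0.0759). This difference passed under quantile normalization, with trend and robust estimation and with only the 2 groups compared. The fits without a Control array repeat the last of these. The HBEGF probe was not well above background on any array, with readings of -5.79 to -3.99.

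**Figure D2:**
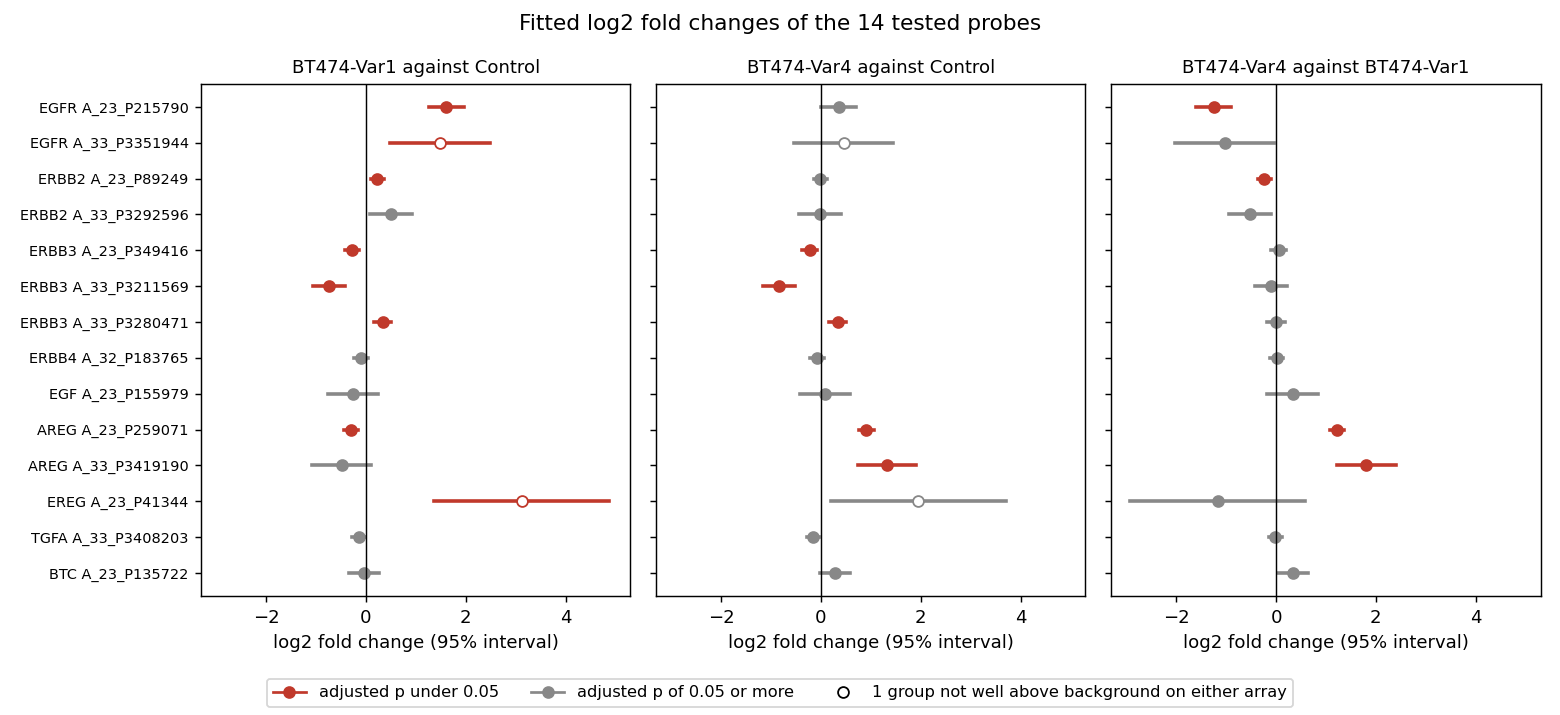
Fitted log2 fold changes of the 14 tested probes (points) with 95% intervals (lines) in the 3 comparisons, red where the adjusted p was under 0.05 and open where 1 group was not well above background on either array. EGFR A_23_P215790 lies at 1.61 in BT474-Var1 cells and at 0.36 in BT474-Var4 cells, and AREG A_23_P259071 lies at -0.30 and 0.91.

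Of the 17 differences of member probes that passed over the 3 comparisons, 5 also passed under each alternative in processing and with each array left out. They were EGFR A_23_P215790 in BT474-Var1 cells against Control and between the variants, AREG A_23_P259071 in BT474-Var4 cells against Control and between the variants, and AREG A_33_P3419190 between the variants. Without 1 array the adjusted p of these 5 stayed between 0.00863 and 0.0377. The other 12 were lost under at least 1 alternative, and none of the 42 differences reversed with a call on either side.

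**Figure D3:**
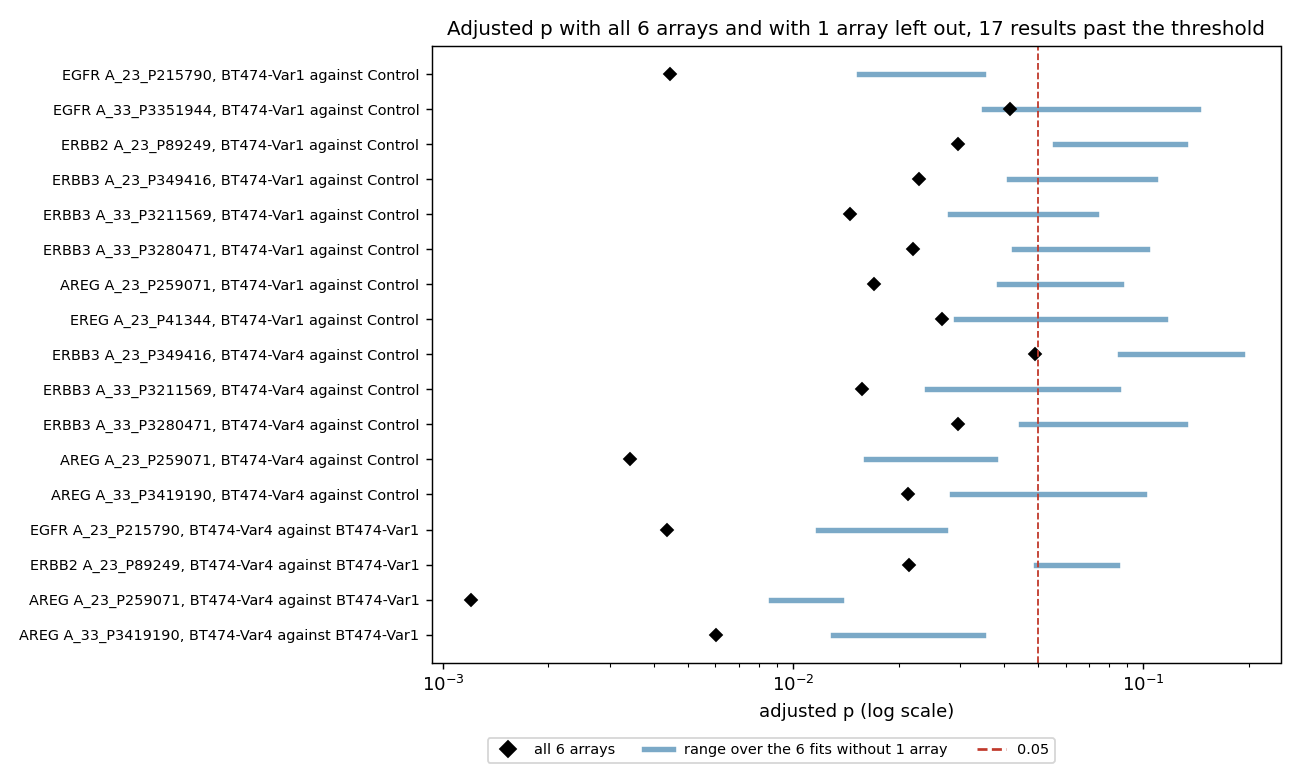
Adjusted p (x axis, log scale) of the 17 member differences that passed, with all 6 arrays (diamonds) and as the range over the 6 fits that each leave out 1 array (bars), against the threshold of 0.05 (dashed line). The bars of 5 differences of EGFR and AREG lie to the left of the line, and that of EGFR A_23_P215790 in BT474-Var1 cells runs from 0.0154 to 0.0349.

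The genes around these receptors were followed as a list of 62 genes with 92 probes, of which 80 probes of 57 genes were tested. In BT474-Var1 cells 34 of the 80 passed, 9 higher and 25 lower, which is 42.5% beside 34.4% of all tested probes. In BT474-Var4 cells 18 passed, 6 higher and 12 lower, or 22.5% beside 24.2%, and between the variants 36 passed, 24 higher and 12 lower in BT474-Var4 cells, or 45% beside 41.2%. The median log2 fold change of the list was -0.13, -0.03 and 0.09 in the 3 comparisons. In BT474-Var1 cells the count fell by more than 1.5 times without an array of Control or BT474-Var1, and in BT474-Var4 cells whichever array was left out. Between the variants it fell by more than 1.5 times without an array of either variant. Calls over all tested probes fell too in each of these fits.

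By role, the counts are read against all tested probes, of which 14.1% were higher and 20.3% lower in BT474-Var1 cells, 9.87% and 14.3% in BT474-Var4 cells, and 20.4% and 20.7% between the variants. The numbers of probes per role are small, and no role was tested against the rest. The PI3K and AKT genes had 1 probe higher and 8 lower of 17 in BT474-Var1 cells and 0 higher and 3 lower in BT474-Var4 cells. Receptor inhibitors and turnover genes, which end the signal of the receptors, had 2 higher and 5 lower of 14 in BT474-Var1 cells and 4 higher and 1 lower in BT474-Var4 cells. Between the variants 6 of their 14 probes were higher in BT474-Var4 cells and 0 were lower, which is 42.9% passed beside 41.2% of all tested probes. RAS and ERK genes had 3 higher and 3 lower of 14 in BT474-Var1 cells and 0 higher and 2 lower in BT474-Var4 cells. Adaptors had 1 higher and 4 lower of 16, then 1 higher and 2 lower, and receptor scaffolds and trafficking genes 2 higher and 3 lower of 9, then 0 higher and 2 lower. Ligand shedding genes had 0 higher and 1 lower of 6, then 1 higher and 1 lower, and the ligands outside the members, mostly neuregulins, 0 higher and 1 lower of 4 in either population. Between the variants, 5 PI3K and AKT probes were higher in BT474-Var4 cells and 3 lower, against 3 and 5 for RAS and ERK. Adaptors had 4 higher and 1 lower, and receptor scaffolds and trafficking genes 5 and 2 of 9, or 77.8%. Ligand shedding genes had 0 of either, and the other ligands 1 of each.

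**Figure D4:**
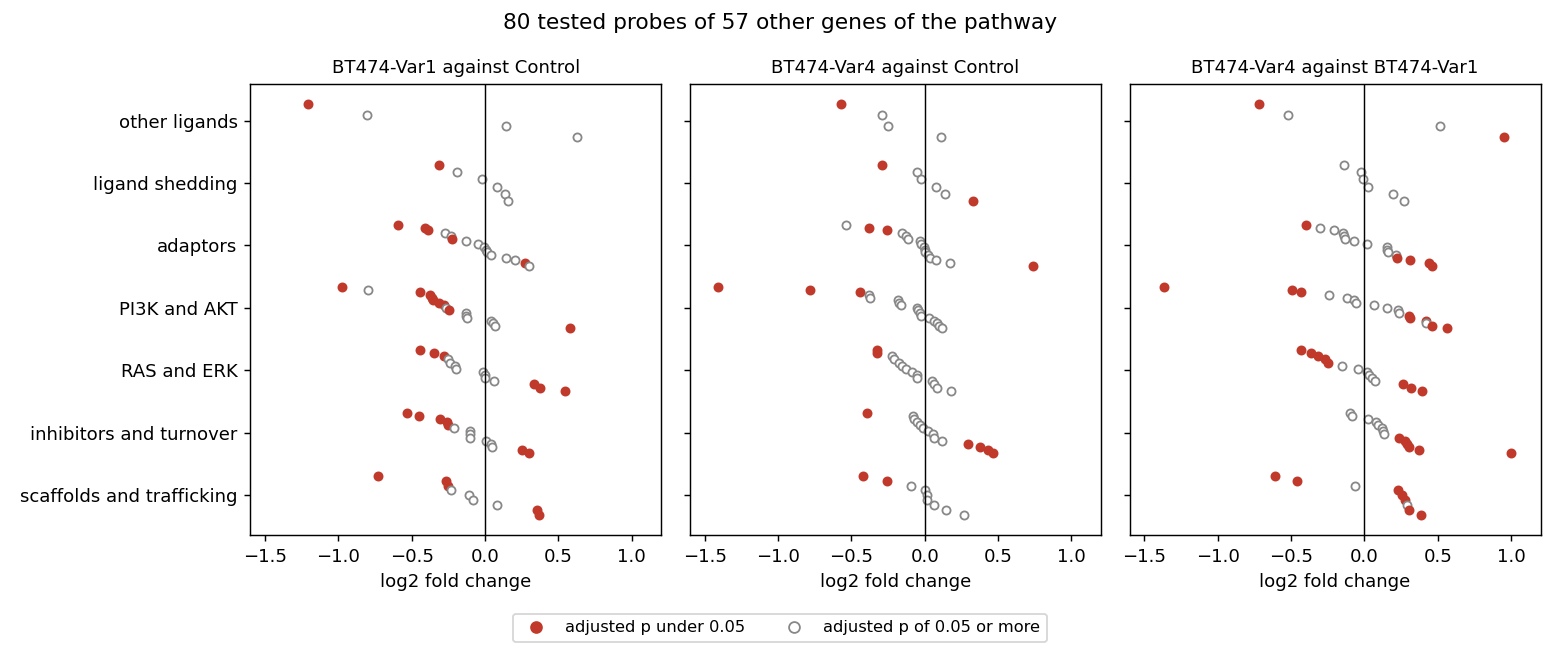
Log2 fold change (x axis) of each of the 80 tested probes of 57 other genes of the pathway, by role, in the 3 comparisons, filled where the adjusted p was under 0.05. In BT474-Var1 cells 25 of the 34 filled points lie below 0, and the filled points of the adaptors, for example, lie on both sides of 0. All tested probes passed in 34.4% of cases in this comparison.

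ERRFI1, AKT2 and NRG3 each changed by 2-fold or more in at least 1 comparison. ERRFI1 (MIG6), an inhibitor that binds the EGFR kinase, had means of 2.52 ± 0.04 (SD, n = 2) in Control, 1.98 ± 0.03 in BT474-Var1 cells and 2.98 ± 0.06 in BT474-Var4 cells. The 3 groups did not overlap, in the order also seen for AREG. ERRFI1 fell by 0.53 in BT474-Var1 cells (limma, adjusted p = 0.00642), rose by 0.47 in BT474-Var4 cells (limma, adjusted p = 0.0120) and differed by 1.00 on the log2 scale between them (limma, adjusted p = 0.00159).

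AKT2, a kinase downstream of PI3K, had 3 probes that differed among themselves. A_33_P3381647 read -0.58 and -0.62 in Control, 0.06 and -0.10 in BT474-Var1 cells and -1.46 and -1.31 in BT474-Var4 cells, so it was higher in one variant and lower in the other. Its log2 difference from Control was 0.58 in BT474-Var1 (limma, adjusted p = 0.0121) and -0.78 in BT474-Var4 cells (limma, adjusted p = 0.00964), and the variants differed by -1.36, 2.57-fold (limma, adjusted p = 0.00181). A_23_P208870 gave 0.05 and -0.44, of which the second passed (limma, adjusted p = 0.526 and 0.0135), and A_33_P3400171 gave -0.13 and -0.37, which did not pass (limma, adjusted p = 0.373 and 0.0638).

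NRG3, a neuregulin that binds ERBB4, was lower in BT474-Var1 cells by its probe A_33_P3229417. It read -2.38 and -2.41 in Control, -3.79 and -3.40 in BT474-Var1 cells and -2.70 and -2.59 in BT474-Var4 cells, with both BT474-Var1 arrays the lowest. The log2 difference was -1.20 in BT474-Var1 cells, 2.30-fold lower (limma, adjusted p = 0.00704), and -0.25 in BT474-Var4 cells (limma, adjusted p = 0.256). The second NRG3 probe, A_33_P3229412, was above background on both arrays of Control only and gave no difference that passed (limma, adjusted p = 0.0893 and 0.486).

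Across all 6 arrays, the genes whose levels ran most like EREG, among 2368 probes that ranged over at least 1 log2 unit, were AP5Z1, AKAP3 and PPP1R1B, with Pearson r of 0.972 to 0.976. Those most like ERBB2 A_23_P89249 were ADAMTS13, ZNF182 and BNIP3, each at r = 0.997. These are descriptions over 6 arrays in 3 groups of replicates, chosen as the highest of many, and carry no test.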

How the data were processed

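One-color Agilent arrays, 2 per group, measured Cy3-labeled total RNA. The authors quantified spot intensities with Feature Extraction 11.5.1.1, including background subtraction, and the deposited files hold these intensities on a linear scale, not normalized between arrays. The authors also deposited a table of log2 values, shifted in GeneSpring so that the 75th percentile of each array is 0, which differed from the values used here by a median of at most 0.00716 per array. The design number in the file headers was not the one in the methods.

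Log2 processed intensities, less the 75th percentile over non-control probes, were averaged over the spots of a probe. The 63 to 128 outlier spots per array were left out, and 0 spots were saturated. The number of arrays limits the precision. Probes flagged above background on both arrays of any 1 group entered a limma 3.58.1 fit (R 4.3.3) with a mean per group over all 6 arrays, and p-values were Benjamini-Hochberg adjusted over 31857 probes. The pipeline was tested on simulated data. The members, the pathway list and the markers were chosen with earlier results of these data known. Named were all member probes, pathway genes past an adjusted p of 0.05 and 2-fold in at least 1 comparison, and the 3 genes most correlated with the member probe of the largest called change and with the brightest ERBB2 probe. Of the pathway genes that this rule names, 1 is counted in the totals but not reported here. Alternatives were the deposited table, a normexp correction (offset of 50), quantile normalization, other filters on dim probes (none, or on all 6 arrays), a replicate block, trend and robust estimation, only the groups compared, the methods' analysis of variance and each array left out. Leaving out an array of the group outside a comparison repeats the fit of only the groups compared, since its remaining array adds nothing to the spread.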

Additional observations from a re-analysis of the deposited data

Results flagged for a closer look

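For 4 probes the variants differed from each other by a test of that difference (limma): the log2 difference of BT474-Var4 minus BT474-Var1 cells was -1.25 for EGFR A_23_P215790, -0.24 for ERBB2 A_23_P89249, 1.22 for AREG A_23_P259071 and 1.81 for AREG A_33_P3419190. Of these, ERBB2 was lost without either array of a variant, under quantile normalization and with no filter on dim probes. The other 3 held under each of these settings and with each array left out.

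The untested TGFA probe A_23_P377291 was well above background on 1 array, BT474-Var1 A, where it read -2.31. It read -6.21 on BT474-Var1 B, between -5.23 and -4.87 on the Control arrays and between -6.08 and -5.57 on the BT474-Var4 arrays, and the other TGFA probe read 2.13 and 2.14 on the same BT474-Var1 arrays. The cause was not tested.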

How the results depend on the processing

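With 2 arrays per group, the counts of calls depended on the processing more than the directions did, and no difference reversed with a call on either side. Member probes that passed in BT474-Var1 cells against Control, 8 as reported, numbered 5 under quantile normalization, 1 with no filter on dim probes and 3 past 2-fold. They were fewer with any 1 array left out, as were calls over all tested probes. Those in BT474-Var4 cells, 5 as reported, numbered 1 with no filter, 2 by the methods' analysis of variance and 1 past 2-fold. With 1 array left out they were as many or fewer. Those between the variants, 4 as reported, numbered 7 after normexp correction and went both up and down with 1 array left out. Of the pathway probes, 34 in BT474-Var1 cells became 4 with no filter and 8 to 30 with 1 array left out. The 18 in BT474-Var4 cells became 1 with no filter, 29 with trend and robust estimation, 8 with only the 2 groups compared and 1 to 8 with 1 array left out, and the 36 between the variants became 6 with no filter and 16 to 25 with 1 array left out. With the replicate letter as a replicate block, 6 member probes passed in BT474-Var1 cells, 4 in BT474-Var4 cells and 4 between the variants. In BT474-Var4 cells 7 pathway probes passed. Of all 31857 tested probes, 8751, 4903 and 11146 passed with this block in the 3 comparisons. The letters are not stated to pair the samples, and deviations of same-lettered arrays correlated at -0.01, 0.05 and -0.02 between groups. These values cannot show whether same-lettered arrays shared a culture or day. With no filter, 58201 probes were tested and adjusted over in place of 31857. Calls over all tested probes moved too. With no filter they went from 10958 to 2672 in BT474-Var1 cells, from 7710 to 722 in BT474-Var4 cells and from 13116 to 5112 between the variants. Quantile normalization gave 10392 in BT474-Var1 cells, and normexp correction 18345 between the variants. In BT474-Var4 cells the analysis of variance gave 5177, trend and robust estimation 11424 and only the 2 groups 5487. Calls over all tested probes were fewer in each comparison with any 1 array left out. Probes not well above background carry only bounds.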
